A study of Bos taurus with 18 samples.

Results

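The cytosolic ribosomal protein genes were followed in rumen papillae, the finger-like folds of the rumen lining, as cows moved from forage to a high-grain diet. Membership was set by a name rule on the deposited count table, with earlier results of these data known. Members are rows with a symbol of the form RPL, RPS or RPLP and a number, for some followed by A, L or X. This gave 78 rows with 77 symbols among 27270 genes, 46 of the large and 32 of the small ribosomal subunit. RPS29 stands in 2 rows, and its second row, with 0 to 11 reads, did not pass the filter on low counts, so 77 members were tested among 22202 genes. RPL31, RPL41 and RPL39L are not analysed here. Ribosomal protein genes have near-identical copies in mammalian genomes, so members may share reads with them.

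The tissue came from 9 non-lactating, ruminally cannulated Holstein cows. PHY was given to 4 of them and the other 5 were controls, and biopsies were taken on a baseline of 100% forage and again after the change to 65% concentrate. The 4 groups are grain_PHY (n = 4, high grain, PHY cows), grain_control (n = 5, high grain, control cows), forage_PHY (n = 4, forage, PHY cows) and forage_control (n = 5, forage, control cows). The labels do not spell out PHY, do not say whether it was already given at the forage biopsy, and tie no library to a cow, so p-values here treat libraries of the same cows as independent.

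A ribosome is built from ribosomal RNA and a fixed set of proteins, nearly all present in a single copy, so a cell needs their messages in balance. The large subunit joins amino acids, the small subunit reads the message, and the acidic stalk proteins RPLP0, RPLP1 and RPLP2 recruit the factors that drive translation. In mammals the messages of these genes begin with a pyrimidine tract through which mTORC1, a nutrient-sensing kinase complex, controls their translation, and RNA-seq measures only the amount of message.

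Library totals ran from 3953060 to 34471682 reads and were lower on grain, at 13416800 ± 6765010 reads against 25166600 ± 7554010 on forage (SD, n = 9 each). The 3 shallowest libraries, grain_PHY 1, grain_control 1 and grain_control 4, also had the highest summed reads on 144 olfactory receptor genes, a family largely silent outside the nose, at 345.3, 168.6 and 125.4 CPM of total reads. Over all libraries that sum was 3.51 times as high on grain as on forage. Of the epithelial markers, 14 were in the table and all had reads in every library. Their levels here are CPM of total reads. KRT5, a basal keratin, averaged 3193 CPM on grain and 3429 CPM on forage. KRT4 and KRT10, keratins of differentiating layers, averaged 3.39 and 4.31 CPM on grain and 0.971 and 3.07 CPM on forage. CRNN, KRT1 and DSG1 also averaged higher on grain. IVL and KRT6A averaged lower on grain, at 271 and 3270 CPM against 314 and 3949 CPM on forage. CPM is a gene's reads scaled to library size, here after TMM scaling unless stated, which sets libraries on the level of the bulk of their genes.

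The ribosomal protein genes as a group had a lower mean summed level on high grain than on forage. Their summed level was 11032 ± 2863 CPM in grain_PHY (SD, n = 4), 15388 ± 7765 CPM in grain_control (n = 5), 20090 ± 3661 CPM in forage_PHY (n = 4) and 21137 ± 7439 CPM in forage_control (n = 5). By library the sum was 7149, 12362, 13807 and 10809 CPM in grain_PHY, and 6742, 17727, 12879, 12189 and 27405 CPM in grain_control. On forage it was 23364, 22054, 19910 and 15030 CPM in forage_PHY, and 20559, 15447, 12460, 29524 and 27695 CPM in forage_control. In PHY cows, after TMM scaling, every grain library lay below every forage library. In control cows the diets overlapped and the highest grain library, grain_control 5, stood above 3 of the 5 forage libraries. The mean on grain was 0.651 times that on forage, 0.549 times in PHY cows and 0.728 times in control cows. In a bulk tissue, fewer cells of a type and less RNA per cell cannot be told apart.

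**Figure D1:**
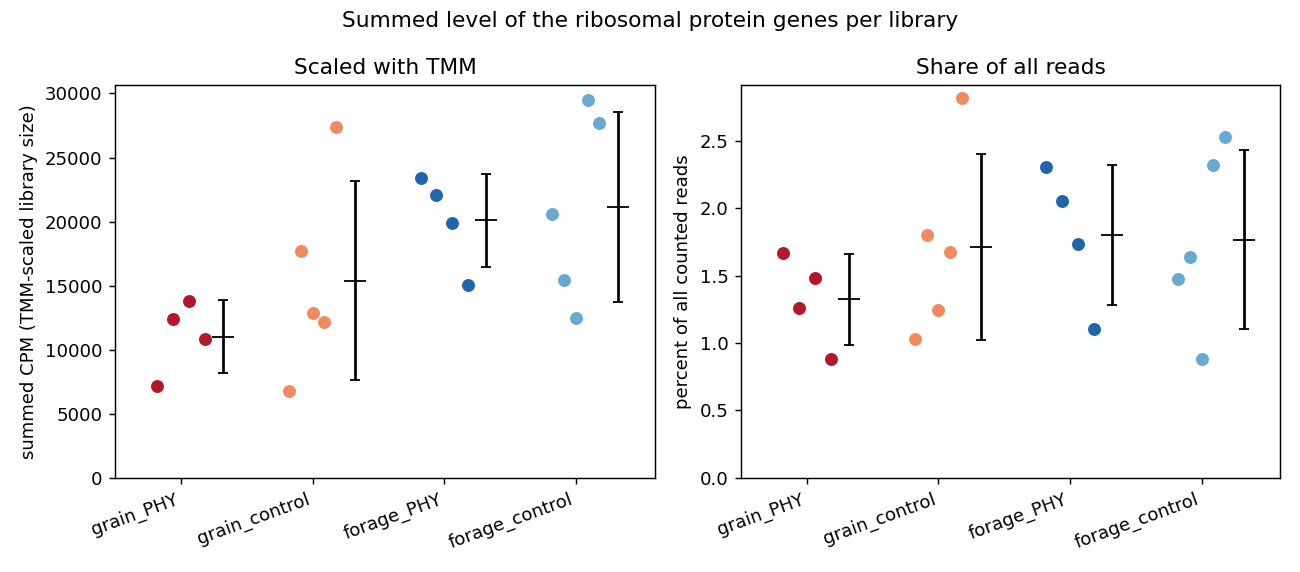
Summed level of the ribosomal protein genes in each library (points), in CPM after TMM scaling (left) and as a percent of all counted reads (right), with the mean and SD of each of the 4 groups. On the left, in PHY cows the grain libraries (7149 to 13807 CPM) lie below the forage libraries (15030 to 23364 CPM), and in control cows the diets overlap.

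The size of that difference depended on the scale. As a share of all reads, the members made up 1.32 ± 0.339% in grain_PHY, 1.71 ± 0.693% in grain_control, 1.798 ± 0.519% in forage_PHY and 1.77 ± 0.664% in forage_control. The grain mean was then 0.864 times the forage mean, 0.736 times in PHY cows and 0.968 times in control cows. On this scale the diets overlapped in PHY cows too. Their libraries held 1.67, 1.26, 1.48 and 0.881% on grain and 2.30, 2.05, 1.73 and 1.10% on forage. The library grain_PHY 1, lowest of its group after TMM scaling, was the highest of its group on this scale. Its TMM factor was 2.35. TMM factors were 1.45 times as large on grain as on forage, and over all genes the median log2 change was 0.20 after TMM and 0.75 on total reads. The median of the members was below that of all genes on both scales, at −0.68 after TMM and −0.26 on total reads.

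Gene by gene, 46 of the 77 tested members were lower on grain than on forage over both arms, that is, over PHY and control cows together (59.7%), against a background of 13.8% of all tested genes called lower. The test was edgeR's quasi-likelihood test with Benjamini-Hochberg adjustment over all tested genes, with a call at an adjusted p under 0.05. RPL3L was the single member called higher, against a background of 18.1% called higher and 31.9% called in either direction. The log2 fold change was below 0 for 75 of the 77 members, with a median of −0.68, while the median of all tested genes was 0.20 and 9758 of 22202 were below 0. Well-expressed genes in general lay below 0: of 3033 other genes with a mean of 30 to 1000 CPM, 2954 did so, a share like that of the members. Of the 3033, 49.4% were called lower with a median of −0.49, beside 45 of the 74 members with a mean of at least 30 CPM (60.8%, median −0.68). No member had all grain libraries on one side of all forage libraries over both arms, against 0.153% of all genes that did so lower and 0.054% higher.

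These calls rested on single libraries and on the handling of shallow ones. With all libraries, 69 members and 11166 of all 22202 tested genes had an unadjusted p under 0.05 in edgeR's fit. For the fits that leave out libraries or add the covariate, the shares over all genes are not given here. Without grain_PHY 1 edgeR called 0 members (49 at an unadjusted p under 0.05) with a median of −0.55, and without forage_PHY 1 there were 2 and without forage_PHY 2 there were 11. Leaving out forage_PHY 3 gave 27 calls, forage_control 1, 4 or 5 gave 28, 21 and 21, and grain_control 1, 2, 3 or 4 gave 21, 27, 29 and 20. Without grain_control 5 there were 74. All 47 calls, RPL3L included, stayed without forage_control 2, forage_control 3 or grain_PHY 3, with 11, 15 and 1 more. Without forage_PHY 4, 46 of the 47 stayed, and without grain_PHY 2 or 4, 32 and 35 did. Without the 3 shallowest libraries together 0 members were called by edgeR (28 had an unadjusted p under 0.05), and the median was −0.39. With the olfactory receptor reads as a covariate, 0 were called (0 with an unadjusted p under 0.05) and the median was 0.05. On total reads 2 members were called, both higher, while 0.36% of all genes were called lower and 36.8% in either direction. With all libraries, DESeq2 called 54 members, 52 of them lower (background 37.5% and 11.6%), and limma voom called 74, 73 of them lower (background 45.7% and 19.7%).

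**Figure D2:**
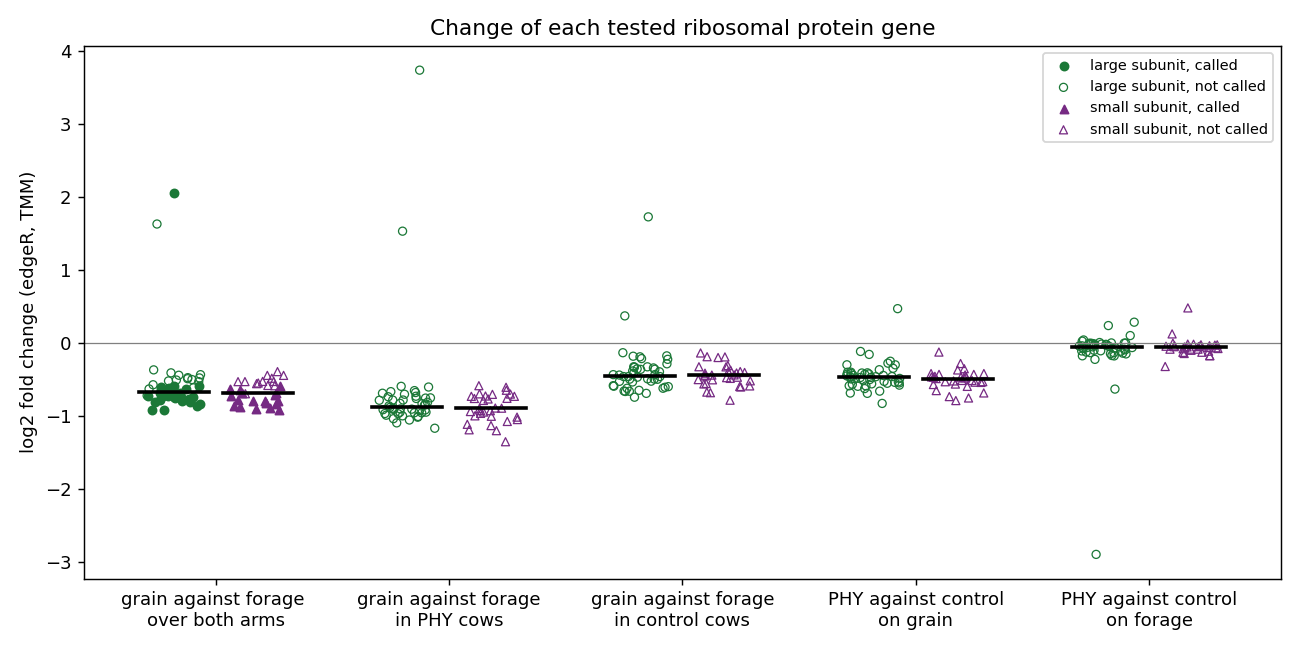
Log2 fold change (edgeR, TMM) of each tested member in 5 comparisons, large-subunit members as circles and small-subunit members as triangles, filled where called, with a bar at each median. Over both arms 75 of the 77 members lie below 0, with RPL3L and RPL10L above it and medians of −0.67 and −0.68 for the large and small subunit; in the other 4 comparisons no point is filled.

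The 5 largest called falls were those of RPL36, RPL28, RPS29, RPS27L and RPS21, and none reached a 2-fold change. RPL36, a large-subunit protein, had 50.0, 75.5, 137.7 and 115.5 CPM in grain_PHY, 51.0, 107.9, 120.3, 113.5 and 218.0 CPM in grain_control, 228.3, 203.7, 200.2 and 177.8 CPM in forage_PHY, and 185.0, 129.0, 129.1, 273.6 and 307.1 CPM in forage_control. After TMM scaling its PHY libraries did not overlap between diets, and in control cows grain_control 5 lay above 3 forage libraries. It averaged 109.9 ± 51.1 CPM on grain and 203.8 ± 59.6 CPM on forage, a log2 fold change of −0.92 ± 0.25 (SE; edgeR adjusted p = 0.0217), or 1.89-fold lower.

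RPL28, a large-subunit protein that is absent from yeast ribosomes, had 41.5, 77.8, 95.6 and 75.3 CPM in grain_PHY, 44.0, 102.8, 90.4, 90.4 and 188.4 CPM in grain_control, 178.3, 191.2, 158.9 and 124.7 CPM in forage_PHY, and 154.7, 121.3, 93.8, 222.5 and 225.2 CPM in forage_control. The order of the groups was that of RPL36, with grain_PHY lowest. Its log2 fold change was −0.92 ± 0.24 (edgeR adjusted p = 0.0216). RPL36 and RPL28 each stayed called when any 1 library was left out except grain_PHY 1, without which their adjusted p was 0.0637 and 0.0629.

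The small-subunit proteins RPS29 (ENSBTAG00000052337) and RPS21 fell by 0.92 ± 0.28 and 0.90 ± 0.26 on the log2 scale (edgeR adjusted p = 0.0258 and 0.0237). RPS21 had 20.5, 43.5, 50.4 and 31.1 CPM in grain_PHY, 18.4, 57.4, 43.5, 36.7 and 95.2 CPM in grain_control, 92.2, 81.4, 82.8 and 59.3 CPM in forage_PHY, and 73.6, 54.0, 39.1, 118.2 and 116.7 CPM in forage_control. Its diets, too, were apart in PHY cows and overlapped in control cows. RPS27L, a paralog of RPS27 that is induced by p53 in human cells, fell by 0.90 ± 0.28 (adjusted p = 0.0268). It held 7.90 ± 3.48 CPM on grain and 14.7 ± 6.01 CPM on forage (SD, n = 9 each).

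All 3 stalk proteins were called lower on grain over both arms. RPLP0, the base of the stalk, had 294.1, 442.0, 560.7 and 373.4 CPM in grain_PHY, 304.9, 773.5, 552.5, 508.2 and 1223 CPM in grain_control, 938.5, 916.3, 740.8 and 646.9 CPM in forage_PHY, and 844.0, 763.1, 547.2, 1466 and 1121 CPM in forage_control. As for RPL36, the diets were apart in PHY cows and overlapped in control cows. The log2 fold change was −0.73 ± 0.25 for RPLP0 (edgeR adjusted p = 0.0356), −0.72 ± 0.27 for RPLP1 (adjusted p = 0.0465) and −0.78 ± 0.25 for RPLP2 (adjusted p = 0.0278). Calls of all 3 depended on the libraries: with each of the 18 left out in turn, RPLP0 was called 7 times, RPLP1 5 times and RPLP2 15 times.

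Among the other large-subunit members picked for their roles, RPL13A, which in human cells also joins an interferon-induced complex that silences translation, fell by 0.73 ± 0.25 on the log2 scale (edgeR adjusted p = 0.0335). RPL23 and RPL26, both of which can bind the p53 regulator MDM2, fell by 0.69 ± 0.24 and 0.76 ± 0.25 (adjusted p = 0.0379 and 0.0314), and RPL38, known in mice for the translation of Hox messages, fell by 0.75 ± 0.23 (adjusted p = 0.0264). RPL5 and RPL11, which carry the 5S RNA and also bind MDM2, had log2 fold changes of −0.52 ± 0.24 and −0.50 ± 0.22 and did not pass (adjusted p = 0.0876 and 0.0751). RPL3 and RPL10, which lie near the catalytic centre and the transfer RNA path, had −0.51 ± 0.24 and −0.53 ± 0.24 (adjusted p = 0.0866 and 0.0766). RPL32, often used as a reference gene, had −0.62 ± 0.25 (adjusted p = 0.0546), and RPL39, a short protein of the exit tunnel, had −0.37 ± 0.23 (adjusted p = 0.194).

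In the small subunit, RPS3, which lines the entry of the message channel, averaged 190.4 ± 94.7 CPM on grain and 319 ± 93.4 CPM on forage and fell by 0.82 ± 0.24 on the log2 scale (edgeR adjusted p = 0.0237). RPS10, RPS14 and RPS20, proteins of the head and platform, fell by 0.79 ± 0.25, 0.64 ± 0.24 and 0.68 ± 0.26 (adjusted p = 0.0279, 0.0452 and 0.0448). RPS6, the substrate of S6 kinase, had −0.58 ± 0.24, and RPS19, whose loss causes Diamond-Blackfan anaemia in people, had −0.59 ± 0.23; both just missed the threshold (adjusted p = 0.0581 and 0.0527). RPS4X had −0.55 ± 0.24 (adjusted p = 0.0691) and RPS27 had −0.48 ± 0.26 (adjusted p = 0.133). RPS27A, made as a fusion with ubiquitin, had one of the smallest changes, −0.39 ± 0.24 (adjusted p = 0.184).

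**Figure D3:**
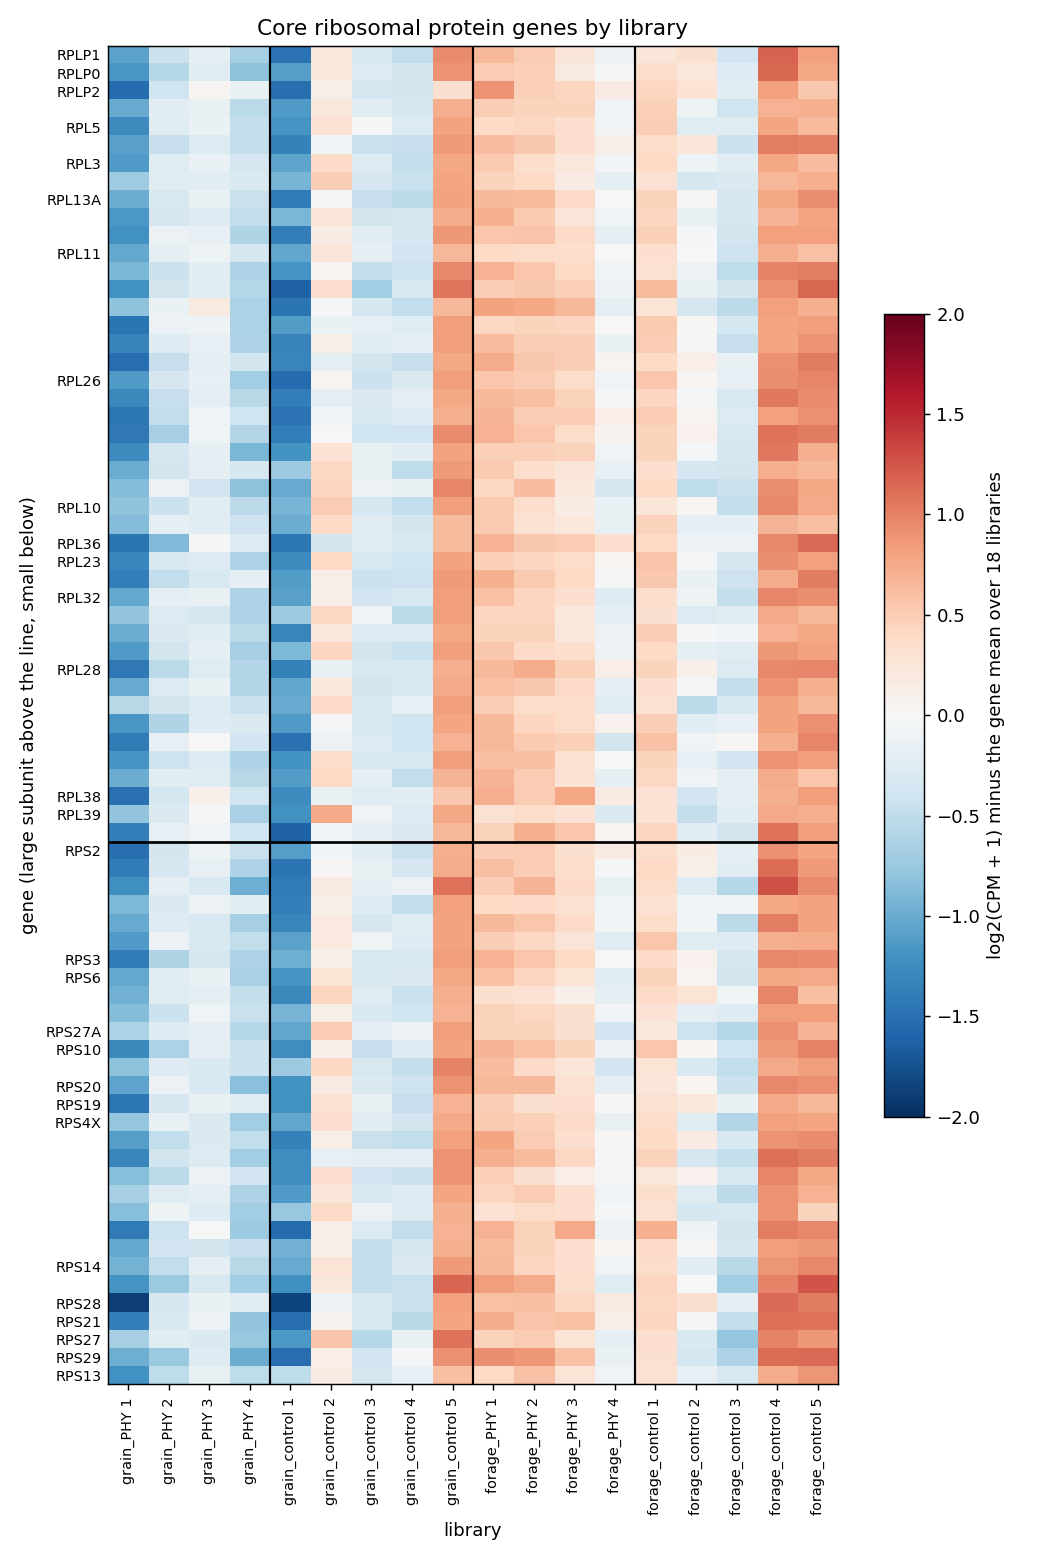
Level of each well-expressed member in each library, as log2(CPM + 1) centred on the member's mean over the 18 libraries, with libraries ordered by group, large-subunit rows above the line and some rows named. A library low for one member, such as grain_PHY 1 or grain_control 1, is low for nearly all. These levels are after TMM scaling, with factors of 2.35 in grain_PHY 1 and 1.53 in grain_control 1. As a share of all reads, the members made up 1.67% in grain_PHY 1, the highest of its group. In grain_control 1 they made up 1.03%, the lowest of its group.

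The tissue-restricted paralogs were at the limit of detection. RPL3L, a paralog of RPL3 found in striated muscle, had 1 to 43 reads in a library. Its level was 4.66, 1.30, 0.781 and 0.295 CPM in grain_PHY, 2.18, 1.23, 0.745, 1.17 and 1.03 CPM in grain_control, 0.222, 0.0312, 0.166 and 0.0731 CPM in forage_PHY, and 0.151, 1.195, 2.67, 0.859 and 0.0323 CPM in forage_control. The highest value stood in the shallowest library, the diets did not overlap in PHY cows, and in control cows they did. The log2 fold change over both arms was 2.05 ± 0.67 (edgeR adjusted p = 0.0297), and 0.46 with the olfactory receptor reads as a covariate. The call was lost without grain_PHY 1 (1.502 ± 0.66, adjusted p = 0.114), without grain_control 1 (adjusted p = 0.0550) and without forage_PHY 1 or 2 (adjusted p = 0.0505 and 0.0628). RPL10L, a testis-expressed retrogene copy of RPL10, had 0 to 34 reads and a log2 fold change of 1.63 ± 0.75 that did not pass (adjusted p = 0.0845).

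Within each arm edgeR called no member for diet, nor any other gene (background 0%). In PHY cows 64 of the 77 members had an unadjusted p under 0.05, the smallest adjusted p was 0.0696 and the median log2 fold change was −0.89. The count of all tested genes at that unadjusted level is not given here for PHY cows. The other tools gave calls there: DESeq2 called 27 members, 26 of them lower (background 22.6% and 5.54%), and limma voom 58, 57 of them lower (background 35.7% and 15.4%). edgeR on the PHY libraries alone called 31, all lower (background 24% in either direction and 6.18% lower). In PHY cows, after TMM scaling, 62 of the 77 members were lower in every grain library than in every forage library, against 15.8% of all tested genes. RPL3L was higher in every grain library, against 14.2%. Among other genes of 30 to 1000 CPM, 1749 of 3033 were lower in every grain library, beside 61 of the 74 members of at least 30 CPM. The smallest p belonged to RPL28 (−1.17 ± 0.36), RPS29 (−1.35 ± 0.42) and RPS3 (−1.13 ± 0.36) among the lower members, and to RPL3L (3.74 ± 1.07) and RPL10L (1.53 ± 1.12) among the higher.

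In control cows 4 of the 77 members had an unadjusted p under 0.05 with edgeR, beside 2518 of all 22202 tested genes. The smallest adjusted p of the members was 0.432 and their median was −0.44. DESeq2 and limma voom also called 0 members, with 8 and 49 at an unadjusted p under 0.05. Counts of all genes at that level are not given here for these tools, and edgeR's 2518 is no background for them. No member was apart between the diets, against 0.86% of genes lower and 0.491% higher. RPL36 (−0.74 ± 0.33), RPS28 (−0.79 ± 0.37) and RPL19 (−0.69 ± 0.33), components of the large, small and large subunit, had the smallest p. Tested as an interaction, the gap between the arms' responses to grain was called for 0 members by edgeR (1 with an unadjusted p under 0.05, background 0%), by DESeq2 (1) and by limma voom (0). Its median over the members was −0.42, and the member with the smallest p was RPL3L, at 3.37 ± 1.32 (unadjusted p = 0.0174, adjusted p = 0.954 in edgeR's fit).

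No member was called between PHY and control cows on either diet. On forage the members had a median log2 fold change, PHY over control, of −0.06, and edgeR called 0 (background 0%), with 1 at an unadjusted p under 0.05, as did DESeq2 and limma voom with 1 each. That member was RPL3L in edgeR's fit, at −2.90 ± 1.01 (unadjusted p = 0.00854). On grain the median was −0.48 against 0.01 for all tested genes, and 76 of the 77 members had a value below 0, beside 10906 of 22202 tested genes. Other genes of 30 to 1000 CPM had a median of −0.17, with 2447 of 3033 below 0. edgeR called 0 of them (background 0%), with 0 at an unadjusted p under 0.05, and DESeq2 and limma voom called 0, with 6 and 0. RPS13 (−0.57 ± 0.28), RPS3 (−0.69 ± 0.34) and RPS26 (−0.79 ± 0.40), all of the small subunit, had the smallest p. Without the 3 shallowest libraries 24 members had an unadjusted p under 0.05 and 0 were called. The count of all tested genes at that unadjusted level is not given here for that fit, so the 24 have no background beside them. No member had all PHY libraries on one side of all control libraries, against 0.216% of genes lower and 0.338% higher on forage, and 0.405% lower and 0.311% higher on grain. The comparisons on each diet and within each arm share libraries, so their values are set side by side only.

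The balance between the subunits moved little. Large-subunit genes held 1.59 ± 0.0384 reads for each small-subunit read in grain_PHY, 1.56 ± 0.0226 in grain_control, 1.60 ± 0.0161 in forage_PHY and 1.58 ± 0.0413 in forage_control (SD). The 18 libraries lay between 1.53 and 1.63, so the groups overlapped, and the grain mean was 0.989 times the forage mean while the summed level was 0.651 times as high. This ratio is internal to a library and does not depend on its scaling; it counts reads and is not a ratio of molecules, since transcript lengths were not used here. By gene, 28 of 46 large-subunit members (60.9%) and 18 of 31 small-subunit members (58.1%) were called lower over both arms, with medians of −0.67 and −0.68.

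Evenness was also alike. Shannon evenness, which is 1 when every gene takes the same share of the member reads, was 0.938 ± 0.00182 in grain_PHY, 0.938 ± 0.00208 in grain_control, 0.938 ± 0.00259 in forage_PHY and 0.934 ± 0.00644 in forage_control. The lowest value, 0.925, was that of forage_control 2. In that library the stalk proteins took 15.5% of the member reads, the largest share of any library. On average RPLP0, RPLP1 and RPLP2 took 12.2 ± 0.529% of the member reads on grain and 13.0 ± 1.2% on forage (SD, n = 9 each). Among the genes with most reads were RPLP1, RPS2, RPLP0 and RPLP2, with 913, 797, 723 and 535 CPM over all libraries, and those with fewest were RPL10L, RPL3L, RPS27L, RPS13 and RPS29; these are reads per gene and not per length.

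**Figure D4:**
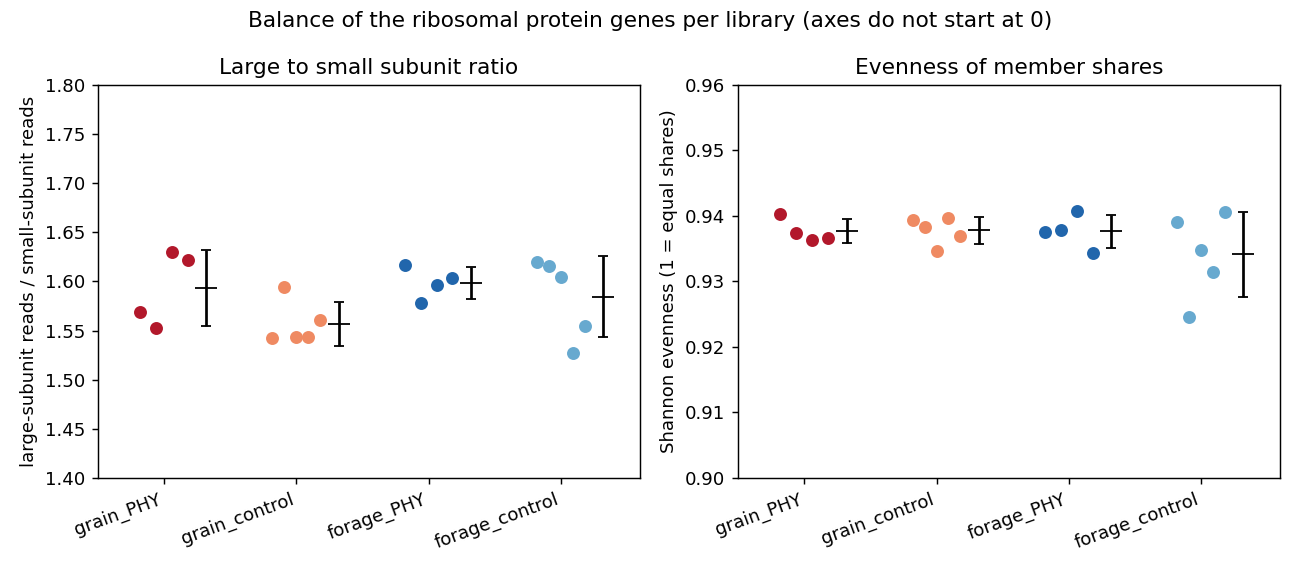
Reads on large-subunit genes over reads on small-subunit genes (left) and Shannon evenness of the members' shares (right) in each library, with group means and SD. Ratios lie between 1.53 and 1.63 and evenness between 0.925 and 0.941, and the groups overlap on both.

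The members moved as a block from library to library. Across the 18 libraries, the log2 CPM of each of the 74 members other than the 3 paralogs RPL3L, RPL10L and RPS27L had a median Pearson r of 0.978 with the mean of the remaining members, with the lowest, 0.920, for RPLP2. After removal of group means the median was 0.974. These values are descriptions over points that share library, depth and scaling. Between groups the rank order of the members' read shares had a Spearman correlation of 0.974 to 0.991, and the largest difference of any share between 2 groups was 0.433 on the log2 scale, for RPS29 in PHY cows.

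A few members departed from the block. With library size set to the summed member reads, a scale on which a log2 fold change is the change of a gene's share of those reads, edgeR called 4 of the 77 members for diet over both arms (12 at an unadjusted p under 0.05), against 42.9% of all genes in either direction, 42.8% higher and 0.045% lower. This scale was chosen after seeing the data. RPL28 took 0.580, 0.630, 0.692 and 0.697% of the member reads in grain_PHY, 0.653, 0.580, 0.702, 0.742 and 0.687% in grain_control, 0.763, 0.867, 0.798 and 0.830% in forage_PHY, and 0.752, 0.785, 0.753, 0.753 and 0.813% in forage_control. Every grain library lay below every forage library. Of the 74 members other than the paralogs, 1, RPL28, was apart in this way and 0 were apart the other way. Over all tested genes on this scale, 0.00901% were apart lower and 0.0405% higher. As 42.8% of all genes were called higher on this scale, these shares are no like reference for a change within the members. For RPL28 the log2 change of share was −0.26 ± 0.10 (edgeR adjusted p = 0.0454).

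RPS27A went the other way. Its share was 1.92, 1.44, 1.34 and 1.33% in grain_PHY, 1.52, 1.71, 1.44, 1.62 and 1.39% in grain_control, 1.24, 1.31, 1.34 and 1.08% in forage_PHY, and 1.19, 1.03, 1.15, 1.36 and 1.23% in forage_control. Most grain libraries lay above the forage libraries, with an overlap between 1.33 and 1.36%. The log2 change of share was 0.32 ± 0.11 (edgeR adjusted p = 0.0327), whereas on the TMM scale its log2 fold change was −0.39. RPL3L and RPL10L were the other calls, at 2.90 ± 0.86 and 2.34 ± 0.88 (adjusted p = 0.0213 and 0.0394), and RPL7A, a large-subunit protein, was just outside at 0.27 (adjusted p = 0.0501).

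These share changes kept their direction with every library left out in turn, but most fits without 1 library lost the call of RPL28. RPL28 ranged from −0.28 to −0.24 and was called in 4 of 18 fits, with adjusted p up to 0.112, the value without grain_PHY 1. RPS27A ranged from 0.25 to 0.35 and was called in 10 of 18, with adjusted p up to 0.101, again without grain_PHY 1. Without the 3 shallowest libraries the values were −0.25 ± 0.12 for RPL28 and 0.24 ± 0.13 for RPS27A (adjusted p = 0.326 and 0.340). RPL3L was called in 15 of 18 fits, ranging from 2.06 without grain_PHY 1 (adjusted p = 0.0788) to 3.497, and RPL10L in 6 of 18. Without the 3 shallowest libraries they had 1.55 ± 0.81 and 1.45 ± 0.89 (adjusted p = 0.339 and 0.377). With the olfactory receptor covariate all 4 share calls ended (adjusted p = 0.9998 each), at −0.22 for RPL28, 0.23 for RPS27A, 0.29 for RPL3L and 1.06 for RPL10L. In the other 5 comparisons edgeR called 0 members on this scale, with 1 to 3 at an unadjusted p under 0.05.

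The 2 arms share no library, so their share changes can be set against each other. Of the 74 members, 58 changed share in the same direction on grain in PHY cows and in control cows, 29 upward and 29 downward. Across genes the Spearman correlation was 0.678 and Pearson's r 0.666, a description over genes that are not independent. Mean total reads on grain were 0.401 times those on forage in PHY cows and 0.649 times in control cows. Olfactory receptor reads, in CPM of total reads, were 5.62 and 2.36 times as high. The part of depth and of these reads in the likeness of the arms was not tested. RPS28, RPL36 and RPS21 lost share by 0.30, 0.27 and 0.25 on the log2 scale over both arms, and RPL39, RPL30 and RPS15A gained 0.29, 0.27 and 0.26, none of them called.

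**Figure D5:**
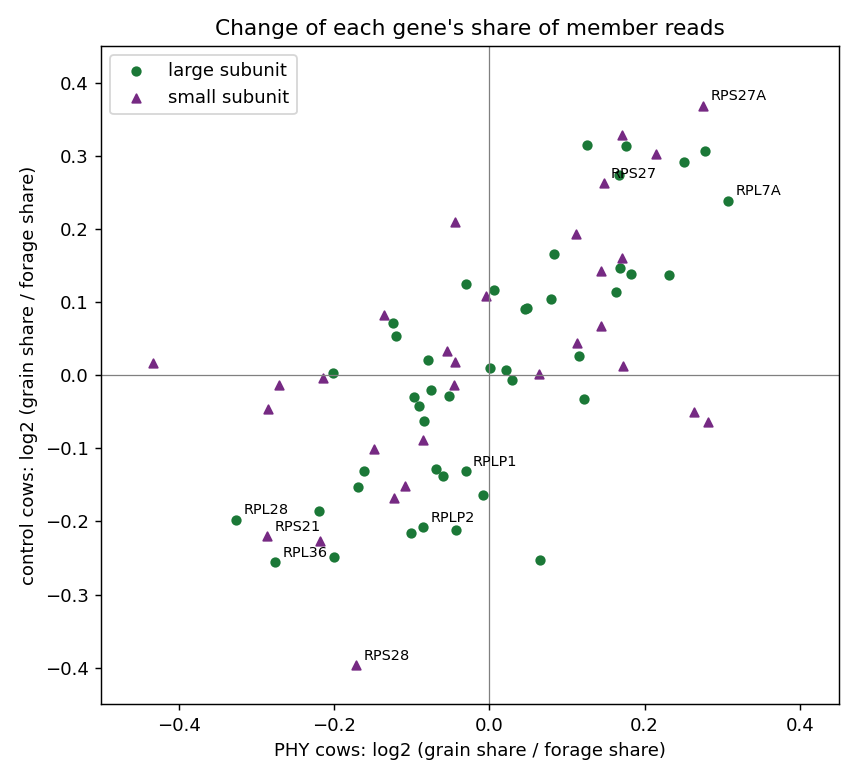
Log2 change, grain over forage, of each member's share of the member reads in PHY cows (horizontal) and in control cows (vertical), by subunit, with some members named. Of the 74 members, 58 lie in the lower left or upper right quadrant, with RPL28 among the losses and RPS27A among the gains.

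Genes tied to the ribosome but outside the name rule were read in the same fit, grain against forage over both arms. Of 9 further ribosomal proteins and paralogs, 4 were called lower (44.4%) and none higher by edgeR (median −0.56), a share no larger than the 49.4% among other genes of 30 to 1000 CPM. Among them RPL36AL, a paralog of RPL36A, fell by 0.81 ± 0.24 on the log2 scale, RPSA, a small-subunit protein also known as the laminin receptor, by 0.66 ± 0.24, and RPL26L1, a paralog of RPL26, by 0.58 ± 0.17. FAU and RACK1, a ubiquitin-like fusion and a scaffold on the small subunit, had −0.37 and −0.56 and did not pass (adjusted p = 0.145 and 0.0680). The shares of the lists that follow stand beside the same 49.4%. No list, these 9 genes included, was limited to genes of 30 to 1000 CPM, so the comparison is a rough one.

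Of 20 translation factors and other genes with a pyrimidine tract, 12 were called lower (60%, median −0.61), among them the initiation factor EIF4B (−0.83 ± 0.24) and the poly(A)-binding protein PABPC1 (−0.71). The elongation factors EEF1A1 and EEF2 had −0.47 and −0.56 and did not pass (edgeR adjusted p = 0.139 and 0.0594). Of 27 ribosome biogenesis genes, 13 were called lower (48.1%, median −0.48), among them the nucleolar methyltransferase FBL (−0.91 ± 0.21), the processing factor PES1 (−0.76) and nucleolin, NCL (−0.70). Of 15 genes of mTORC1 and its targets, 8 were called lower (53.3%, median −0.48), including LARP1, which binds pyrimidine-tract messages (−0.62), and the translation repressor EIF4EBP1 (−0.58); the kinase MTOR itself had −0.32 (adjusted p = 0.107). Of 76 mitochondrial ribosomal proteins, which build another ribosome, 48 were called lower (63.2%, median −0.55). No gene of these lists was called higher.

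Markers of other cells were read against the 18.1% of all tested genes called higher on grain. Calls were made after TMM scaling, whereas the summed levels in this paragraph are CPM of total reads. TMM factors were 2.35 in grain_PHY 1, 1.53 in grain_control 1 and 1.37 in grain_control 4, so sums in these libraries would be lower after TMM. Of 8 T and NK cell markers 3 were called higher on grain and none lower, and their summed level was 18.5 to 84.7 CPM on grain and 13.4 to 27.1 CPM on forage. Of 7 myeloid markers 2 were called higher (43.1 to 148.7 CPM on grain, 28.8 to 53.0 CPM on forage), as were 1 of 6 B and plasma cell markers (5.23 to 45.03 CPM on grain, 3.595 to 11.3 CPM on forage) and 2 of 5 tested red cell markers (2.004 to 31.4 CPM on grain, 0.783 to 5.00 CPM on forage). The highest sums of these 4 lists stood in the 3 shallowest libraries, grain_PHY 1, grain_control 1 and grain_control 4: 84.7, 67.5 and 33.4 CPM for T and NK cells, and 31.4, 19.7 and 15.9 CPM for red cells. The other 6 grain libraries lay at 18.5 to 28.8 CPM for T and NK cells, 43.1 to 55.5 CPM for myeloid cells, 5.23 to 10.1 CPM for B and plasma cells, and 2.004 to 8.27 CPM for red cells. The globin genes HBA and HBM were at 0 in 11 and 8 libraries, GNLY and MZB1 in 3 each, and CD79A and CD79B in 2 each. None of 8 stromal (931.8 to 2006 CPM on grain, 176.8 to 2325 CPM on forage) and 6 endothelial markers (115.6 to 313.9 CPM on grain, 83.7 to 259.3 CPM on forage) was called by edgeR, with 0 at an unadjusted p under 0.05 in either list. Of the 14 epithelial markers 3 were called lower and 3 higher, and their sum was 12546 to 25954 CPM on grain and 9649 to 30860 CPM on forage. The part of these cells, of depth and of the olfactory receptor reads in the fall of the ribosomal protein genes was not tested beyond the fits given above.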

How the data were processed

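Per the labels' protocols, total RNA was extracted with a kit for small and large RNA and 10 ng went into a stranded total RNA library kit. The deposited table holds whole-number read counts per Ensembl gene; the authors' second deposited table holds a normalized signal, those counts divided by a DESeq2 size factor per library, and was not tested. The submitters' processing notes name bcl2fastq 2.20, DESeq2 and the build bosTau9. Not given in the sources used here are the aligner, the counter, the annotation and the strandedness of counting. Ribosomal protein genes have many near-identical copies in the genome, and paralogs such as RPL10L share sequence with their parent, so their reads may be split or shared.

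Counts were tested with edgeR 4.0.16 in R 4.3.3 (filterByExpr, TMM, robust quasi-likelihood F test, 1 mean per group, no covariate, all 18 libraries), with Benjamini-Hochberg adjustment over all 22202 genes. The biological coefficient of variation was 51.4%. Members had 115 reads or more in every library apart from RPL3L, RPL10L, RPS27L and the untested second row of RPS29. Sums, ratios and evenness are descriptions with no test. Tests were checked on simulated data with independent libraries and a smaller spread than that of these data. That check does not cover repeated cows or the olfactory receptor reads of shallow libraries. No 2 libraries held identical counts.

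Alternatives were DESeq2 1.42.0, limma 3.58.1 (voom with sample quality weights), DESeq2 size factors, no filter, a stricter filter (1 CPM in 9 libraries), a minimum absolute log2 fold change of 1, only the groups compared, genes of at least 30 CPM, an olfactory receptor covariate, library sizes without the 2 most abundant genes, and each library left out. Total reads, thinning, summed member reads and leaving out the 3 shallowest libraries were chosen after seeing the data. Members and lists were chosen with earlier results of these data known. Named genes were the 5 largest called rises and falls of a comparison (with fewer than 3 calls, the 3 smallest p in each direction), preset members of known role, the 5 with most and fewest reads, and up to 4 called genes of each related list; some genes this rule names are not reported here. Levels per coding length were planned but no lengths were at hand.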

Additional observations from a re-analysis of the deposited data

Results flagged for a closer look

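In 160 checks of a member within a group of libraries, 2 had a library far from the others by Dixon's test, where chance gives about 1 in 20. Both lay in forage_PHY 4. RPL39, a short protein of the exit tunnel, stood at 47.3 CPM there, against 70.7 to 75.1 CPM in the other 3 forage_PHY libraries. RPL11, which carries 5S RNA, stood at 259.0 CPM, against 327.0 to 339.1 CPM in the others. That library also had the lowest summed member level of its group, 15030 CPM.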

How the results depend on the processing

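The number of members called for diet over both arms (47) became 74 with limma voom, 28 after thinning every library to the lowest total, 4 with summed member reads, 2 with total reads (none lower), 1 with a minimum absolute log2 fold change of 1, and 0 with the olfactory receptor covariate, with only genes of at least 30 CPM (18 at an unadjusted p under 0.05) and without the 3 shallowest libraries. Leaving out 1 library gave 0 to 74. With genes of at least 30 CPM alone the members' median was −0.19. In PHY cows the 0 calls became 27 with DESeq2, 58 with limma voom and 31 with only the groups compared, and 0 to 6 with 1 library left out (3 without forage_control 5, 6 without grain_control 1). The cause was not tested. RPS27L had 0.029 with the covariate (adjusted p = 0.999) and RPS27A 0.32 with summed member reads. The other comparisons had 0 calls under every alternative run, and the summed level stayed lower on grain, at 0.566 to 0.691 times forage with 1 library left out and 0.766 times without the 3 shallowest. No paired analysis was possible because no label says which cow a library came from. Depth limits RPL3L and RPL10L, with few reads, and reads shared between near-identical copies could not be separated.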
